A study of Homo sapiens with 26 samples.

Results

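LoVo cells with the PIK3CA mutation H1047R were compared with LoVo cells labelled PIK3CA/WT, both kept in DMSO, the solvent used as the drug control. LoVo is an established human colorectal cancer line that lacks mismatch repair. The comparison rests on 4 of the 26 libraries of the series, 2 of each genotype, and on all genes of the deposited table that holds them. That table lists 18165 genes, of which 12607 reached 1 FPKM in at least 2 of its 18 libraries and were tested. FPKM is the number of fragments mapped to a gene divided by its transcript length and by the library's mapped total.

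The study introduced PIK3CA mutations into LoVo cells with lentiviral vectors and asked how they bear on the response to the CDK4/6 inhibitor palbociclib. The mutant line in DMSO, labelled PIK3CA/H1047R, is clone 3#, and a PIK3CA/E545K line, clone 2#, was used beside it. Both genotypes were also sequenced after 0.5 µM palbociclib for 72 hours and after conditioned medium from senescent cells, with 2 libraries a group, in DMEM with 10% serum. DMSO was given for 72 hours, yet a collection of control cells at 48 hours is also stated, for libraries that are not named. How long cells were kept in conditioned medium, which clones were used for it and whether wild-type cells carry a control vector are not given in the sources used here. Since H1047R is represented by 1 clone, the mutation and the clone cannot be told apart. No source says that the libraries of a group came from separate cultures, so p-values measure only the spread between these libraries, which may be technical.

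PIK3CA encodes the catalytic subunit p110α of phosphoinositide 3-kinase (PI3K), which makes the membrane lipid PIP3 and so recruits the kinase AKT. AKT feeds growth signals to the mTOR complex and keeps the FOXO transcription factors out of the nucleus. H1047R lies in the kinase domain of p110α and is, with E545K, among the common PIK3CA mutations of colorectal cancer. RAS proteins activate both PI3K and the RAF-MEK-ERK kinase cascade.

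The 2 wild-type DMSO libraries stood apart from the rest of the table. On the first principal component of log2 values, which held 56.0% of the variance, they lay at -56.3 and -56.2 and the H1047R DMSO libraries at 9.20 and 6.39. The wild-type palbociclib libraries lay at -40.6 and -40.6, the E545K DMSO libraries at -20.4 and -20.4, and the remaining 12 libraries, H1047R in DMSO and wild-type cells in conditioned medium among them, between 6.39 and 30.2. Their median log2 level of the tested genes was 3.21 and 3.2, below the range of 3.36 to 3.64 in the other 16 libraries. Ribosomal protein genes took 24.9% and 25.1% of the summed FPKM of the wild-type DMSO libraries, beside 21.4% and 20.2% in H1047R in DMSO. The wild-type palbociclib libraries came nearest, with ribosomal shares of 23.3% and 24.1% and medians of 3.38 and 3.36. Because of this offset each comparison was fitted on the values as deposited, on median-centred values and on quantile-normalized values, and a gene is said to have risen or fallen only where all 3 fits gave the same direction with an adjusted p under 0.05. The log2 change printed is that of the median-centred values, on the log2(FPKM + 1) scale, which understates the change of genes with low values; the adjusted p printed is the largest of the 3. The part that the position of the wild-type libraries has in the results was not tested. The same genotypes in palbociclib and in conditioned medium, with libraries of their own, are given beside some of the results only. The wild-type palbociclib libraries share part of the offset, so palbociclib is no reading independent of it.

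Markers of colorectal epithelium outweighed those of other lineages in all 4 libraries. Epithelial markers summed to 7075 and 7380 FPKM in wild-type and 8457 and 7420 FPKM in H1047R cells, most of it keratins. KRT8, an epithelial keratin, was at 3547 and 3777 FPKM in wild-type and 4096 and 3436 FPKM in H1047R libraries, and the adhesion protein EPCAM, with wild type first as in all such pairs, at 417 and 400.3 against 359 and 364 FPKM. Markers of fibroblasts and muscle summed to between 11.1 and 17.6 FPKM and those of endothelium to between 6.41 and 9.30 FPKM, with DCN, LUM and CDH5 at 0. Blood markers summed to 179 and 181 FPKM in wild-type and 161 and 124 FPKM in H1047R cells, most of it HBA1, HBA2 and CD68, and neural markers to between 17.3 and 26.6 FPKM. Of these other lineages 1 marker rose, COL3A1, a fibrillar collagen, at 3.36 and 3.57 against 7.79 and 7.88 FPKM, and 5 fell, all by less than 1 on the log2 scale except HBA2. HBA2, CD68, DES and TUBB3 lost the call under other settings or without single libraries, with adjusted p up to 0.134, 0.211, 0.0541 and 0.104. DES reached the minimum of 1 FPKM in 2 libraries only through wild-type libraries, so its direction was largely set by that filter. The part of such markers in the other results was not tested.

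PIK3CA itself was at 5.38 and 5.42 FPKM in the wild-type libraries and at 6.36 and 7.19 FPKM in the H1047R libraries. The FPKM of the groups did not overlap, but the gene did not pass under all 3 scalings, with a log2 change of -0.07 (SE 0.1, adjusted p = 0.556). On the values as deposited alone the change was 0.28 and passed limma's test (adjusted p = 0.042), so both its sign and its call turned with the scaling. In palbociclib PIK3CA fell, from 7.23 and 6.68 to 5.95 and 4.38 FPKM (log2 -0.53, adjusted p = 0.00961), and in conditioned medium the groups overlapped at 6.2 and 5.93 against 6.79 and 5.75 FPKM. The genotype difference in DMSO exceeded that in palbociclib by 0.46 (adjusted p = 0.0499). The gene lies at chr3:179148126-179240093 of GRCh38, and its total level, summed over alleles, says nothing of which allele was read.

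Of the 33 PI3K, AKT and mTOR pathway components tested, 2 rose and 7 fell, beside 24.7% of all genes tested that rose and 16.5% that fell. Their median log2 change was -0.14, beside -0.085 over all 12607 genes. RPTOR, the substrate-binding subunit of mTOR complex 1, stood at 2.8 and 3.07 FPKM in wild-type and 8.01 and 6.65 FPKM in H1047R cells, a rise of 0.73 on the log2 scale, and the complex 1 inhibitor TSC2 rose by 0.33. EIF4EBP1, a translation repressor that mTOR phosphorylates, fell from 83.8 and 92.7 to 65.6 and 48.7 FPKM (log2 -0.98). RHEB, the small GTPase that switches on complex 1, fell from 116 and 115 to 88.2 and 84.2 FPKM (log2 -0.77), and SGK3, an AKT-related kinase, from 2.05 and 1.8 to 1.04 and 0.94 FPKM (log2 -0.9). AKT1, with a log2 change of -0.1, did not pass the test.

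Across all genes, 3113 were higher in H1047R cells (24.7% of those tested) and 2078 lower (16.5%), together 5191 or 41.2%. Of these, 479 were raised at least 2-fold (3.8%) and 753 lowered at least 2-fold (5.97%), as the plot of mean levels shows. In 2 of the 5191 genes the H1047R and wild-type libraries overlapped, a count largely set by the test that picked these genes from the same libraries. The balance of directions turned with the scaling. As deposited, 6286 genes were higher (49.9% of those tested) and 2206 lower (17.5%), with a median log2 change of 0.26 over all genes. Median-centring gave 3317 higher (26.3%) and 4650 lower (36.9%), and quantile normalization 4047 higher (32.1%) and 3814 lower (30.3%). The higher share of all genes past the threshold was thus 74.0%, 41.6% and 51.5%, and 60.0% where all 3 were required. A comparison of single genes is therefore relative to the other genes of the library, not per cell, and with bulk RNA fewer cells of a type and less RNA per cell cannot be told apart.

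**Figure D1:**
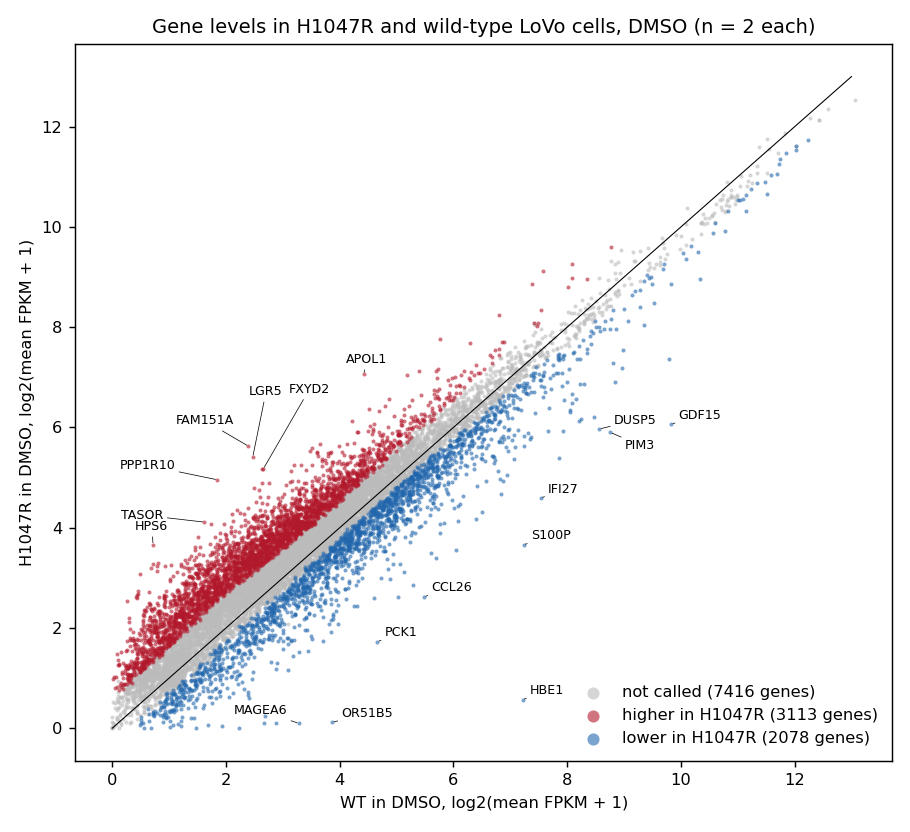
Mean level of each tested gene in wild-type DMSO libraries (horizontal axis) and H1047R DMSO libraries (vertical axis), both in log2(FPKM + 1), with 2 libraries a group. The 3113 genes that rose and the 2078 that fell are coloured and some of those of largest change are named, with HBE1 far below the others at high wild-type level.

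Genes raised most came from several functions. LGR5, the R-spondin receptor that marks intestinal stem cells, lies at chr12:71439129-71586310 and was at 4.49 and 4.6 FPKM in the wild-type and 41 and 42.2 FPKM in the H1047R libraries. Both H1047R libraries lay far above both wild-type libraries (log2 2.6, SE 0.14, adjusted p = 6.92e-09). PPP1R10, a nuclear targeting subunit of protein phosphatase 1 at chr6:30600413-30617243, was at 2.4 and 2.79 against 31.1 and 29 FPKM (log2 2.77, SE 0.09, adjusted p = 2.77e-11). FAM151A had the largest rise among genes with a group mean of at least 5 FPKM, from 4.35 and 4.14 to 59.1 and 37.9 FPKM (log2 2.86, SE 0.17, adjusted p = 3.47e-09), and its 2 H1047R libraries differed from each other more than its wild-type libraries did. HPS6, a subunit of the complex that builds lysosome-related organelles, went from 0.53 and 0.76 to 12.8 and 10.5 FPKM (log2 2.6).

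FXYD2, the gamma subunit of the sodium pump, was at 5.13 and 5.49 FPKM in wild-type and 36 and 34.3 FPKM in H1047R cells (log2 2.17, SE 0.15, adjusted p = 2.51e-08). ROBO2, a receptor for SLIT guidance proteins, was near 1 FPKM in wild-type cells, at 1.03 and 1.04, and at 8.77 and 8.35 FPKM in H1047R cells (log2 1.89, adjusted p = 5.84e-10). TASOR, a core protein of the HUSH complex that silences transposons, rose from 2.09 and 2.06 to 14.5 and 18.1 FPKM (log2 2.14). The groups were clearly separate in all of these. SEPHS2, which makes selenophosphate for selenoproteins, stood at 5.3 and 5.15 against 35.4 and 34.4 FPKM (log2 2.18), and GEN1, a Holliday junction nuclease, at 0.62 and 0.6 against 7 and 9.26 FPKM (log2 2.15). APOL1, an apolipoprotein induced by interferons, rose from 19.2 and 21.7 to 178 and 87.6 FPKM (log2 2.21, SE 0.21), with a wide gap between the 2 H1047R libraries. LRRN4, KRCC1 and the zinc finger gene ZNF302, all under 1 FPKM in wild-type cells, rose by 2.25, 2.24 and 2.14 on the log2 scale.

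The deepest fall was that of HBE1, the embryonic epsilon-globin gene at chr11:5268345-5269945. It stood at 143 and 153 FPKM in the wild-type libraries and at 0.29 and 0.68 FPKM in the H1047R libraries (log2 -7.0, SE 0.14, adjusted p = 2.24e-13). The gene was thus well expressed in both wild-type libraries and under 1 FPKM in both H1047R libraries. GDF15, a stress cytokine of the TGF-beta superfamily at chr19:18386158-18389176, fell from 891 and 929 to 64.3 and 67.8 FPKM (log2 -4.11, SE 0.15, adjusted p = 6.81e-11). S100P, a calcium-binding protein frequent in carcinomas, fell from 152 and 147 to 13.1 and 10.2 FPKM (log2 -3.93, SE 0.17, adjusted p = 2.92e-10). All 3 genes lost most of their signal in both H1047R libraries.

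DUSP5, a nuclear phosphatase that switches off ERK, fell from 376 and 380.0 to 65.2 and 58 FPKM (log2 -2.95, adjusted p = 1.69e-10). PIM3, a survival kinase, fell from 425 and 440.0 to 66.5 and 51 FPKM (log2 -3.22). PCK1, the gluconeogenic enzyme that FOXO induces and insulin represses in liver, fell from 23.6 and 25.1 to 1.8 and 2.82 FPKM (log2 -3.3, adjusted p = 4.29e-09). The eosinophil chemokine CCL26 went from 45.7 and 41.9 to 5.64 and 4.68 FPKM (log2 -3.21), and IFI27, an interferon-induced mitochondrial protein, from 178 and 191 to 24.5 and 21.7 FPKM (log2 -3.29). In each of these the lower wild-type library was at least 5 times the higher H1047R library.

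**Figure D2:**
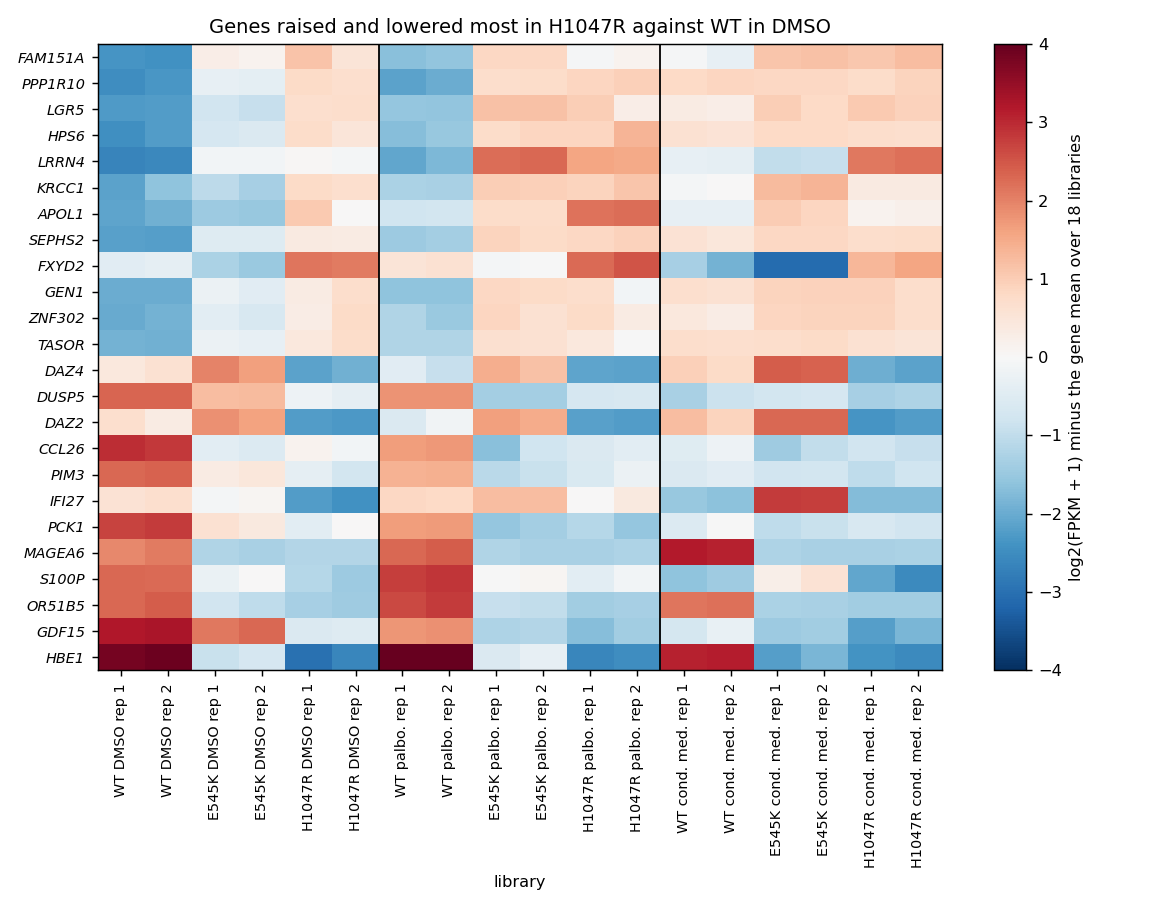
Level of the 12 genes raised most and the 12 lowered most in each of the 18 libraries (wild type, E545K and H1047R in 3 conditions), shown as log2(FPKM + 1) minus the gene's mean over those libraries. Replicates resemble each other, and the wild-type libraries in conditioned medium lie nearer to H1047R for many genes, while HBE1, OR51B5 and MAGEA6 keep the genotype difference in each condition. OR51B5 and MAGEA6 passed the filter on low values only through wild-type libraries.

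Genes that FOXO factors induce or that feed back on insulin signalling fell in 11 of 24 cases and rose in 2, with a median of -0.52. TXNIP, the arrestin that restrains glucose uptake and thioredoxin, stood at 448 and 449 FPKM in wild-type and 149 and 162 FPKM in H1047R cells. The 2 pairs lay well apart (log2 -1.87, SE 0.1, adjusted p = 3.99e-08). GADD45A, a growth-arrest gene that FOXO and p53 both induce, fell from 117 and 114 to 28.4 and 30.8 FPKM (log2 -2.28), and the repressor BCL6 from 15.3 and 14.2 to 3.06 and 3.37 FPKM (log2 -2.24). Among the adaptors of the insulin receptor the directions split. IRS1 rose from 2.3 and 2.37 to 9.17 and 8.23 FPKM (log2 1.19), while IRS2 fell from 30.9 and 31 to 24.9 and 24.1 FPKM (log2 -0.67), and FOXO3 itself fell by 1.04 on the log2 scale. Of the list, 14 members fell and 3 rose in palbociclib, where 28.0% of all genes rose and 23.9% fell, and 2 members rose and 2 fell in conditioned medium, where 2.53% of all genes rose and 4.18% fell.

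Promoter sequence was read for the 250 bases before the annotated start of these genes, from RefSeq on GRCh38.p14. The FOXO site TGTTTAC, on either strand, was present in 2 of the 20 list promoters that had a sequence (10.0%), those of BCL2L11 and TXNIP, and in 2.98% of 27305 promoters. The TXNIP window, chr1:145996580-145996829 on the minus strand, is shown because TXNIP holds the motif of its list and fell, with the match in capitals, on the strand opposite to the gene, from position -124 before the start.
TXNIP: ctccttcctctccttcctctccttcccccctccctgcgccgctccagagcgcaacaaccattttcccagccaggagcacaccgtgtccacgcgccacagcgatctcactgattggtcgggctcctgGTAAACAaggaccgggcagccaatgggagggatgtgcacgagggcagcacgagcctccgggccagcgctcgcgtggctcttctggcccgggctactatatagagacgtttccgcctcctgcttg
The match is a description of these letters and carries no evidence of binding.

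Of 12 receptors, ligands and brakes of the EGFR family that were tested, 4 rose and 3 fell. Of all genes tested, 24.7% rose and 16.5% fell. The receptors EGFR, from 22.4 and 25.6 to 49.5 and 49.9 FPKM (log2 0.68), and ERBB3, from 16.2 and 17 to 35.4 and 40.6 FPKM (log2 0.8), rose, as did ERBB2 by 0.29. Among the ligands, amphiregulin (AREG) fell from 464 and 452 to 109 and 129 FPKM (log2 -2.29) and HBEGF from 13.7 and 13.9 to 3.69 and 4.06 FPKM (log2 -1.95), while betacellulin (BTC) rose from 1.1 and 1.28 to 6.74 and 8.62 FPKM (log2 1.63). ERRFI1, an inhibitor of the receptors' kinase domains, fell from 191 and 191 to 94.3 and 98.3 FPKM (log2 -1.32). Transcripts of EGFR, ERBB2, ERBB3 and BTC were thus higher and those of AREG, HBEGF and ERRFI1 lower in the same libraries.

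Transcripts that ERK signalling induces fell in 14 of 24 cases and rose in 3, with a median of -0.79. Beside DUSP5, the anti-apoptotic early gene IER3 fell from 263 and 266 to 84.9 and 75.5 FPKM (log2 -2.06), the ephrin receptor EPHA2 from 127 and 134 to 55.6 and 49.5 FPKM (log2 -1.64) and the AP-1 subunit JUN from 26.8 and 26.7 to 11 and 10.3 FPKM (log2 -1.6). MYC went the other way, from 23 and 23.2 to 65.5 and 57.8 FPKM (log2 1.03). EGR1, an immediate early transcription factor, was low in all 4 libraries at 2.66 and 2.7 against 5.91 and 4.79 FPKM. Its rise (log2 0.44, adjusted p = 0.0203) was lost without any of 3 libraries, with adjusted p up to 0.293 without the first H1047R library. In palbociclib 12 members fell and 3 rose, and in conditioned medium 10 fell and 1 rose. The member that rose in conditioned medium was JUN, at 5.91 and 5.76 against 9.24 and 8.84 FPKM (log2 0.55). Its interaction with DMSO, -2.15, passed the test.

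Targets of p53 had 20 of 30 members lower and 2 higher, with a median of -0.96. CDKN1A, the CDK inhibitor p21, fell from 237 and 247 to 61.3 and 57.8 FPKM (log2 -2.35, adjusted p = 4.25e-09). The polo-like kinase genes PLK3 and PLK2 fell from 36.7 and 39.3 to 6.7 and 5.86 FPKM (log2 -2.77) and from 89.9 and 88.6 to 17.9 and 19.97 FPKM (log2 -2.53). GDF15 and GADD45A, given above, belong to this list too. The list had 16 members lower in palbociclib and 6 in conditioned medium.

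Genes of DNA replication moved the other way. Of 49 replication and E2F target genes, 34 rose and 1 fell, and their median was 0.45. BRCA1, which acts in homologous recombination, stood at 1.52 and 1.11 FPKM in wild-type and 7.61 and 9.23 FPKM in H1047R libraries (log2 1.68, adjusted p = 2.90e-07). The repressor E2F8 rose from 0.81 and 0.64 to 4.5 and 4.82 FPKM (log2 1.37) and the polymerase epsilon subunit POLE2 from 1.58 and 2.11 to 7.22 and 9.06 FPKM (log2 1.34). The member that fell was the licensing factor CDT1 (log2 -0.83). In palbociclib 32 members rose and 1 fell. In conditioned medium 1 rose by limma's test, and 4 with an unadjusted p under 0.05, while none fell by either measure. The wild-type libraries there had 10.1 and 9.93 FPKM of BRCA1, near the 10.4 and 9.5 FPKM of H1047R.

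Genes of G2/M and mitosis were more mixed, with 12 of 45 higher and 6 lower and a median of 0.04. These shares were close to those of all genes (24.7% and 16.5%). CENPF, a kinetochore protein, rose from 9.45 and 8.16 to 21.1 and 24.5 FPKM (log2 0.93), HMMR, a spindle protein, from 16.3 and 14.3 to 36.6 and 39 FPKM (log2 0.91) and ASPM, a spindle pole protein, from 4.59 and 4.19 to 10.6 and 12.7 FPKM (log2 0.88). CDC20, the activator of the anaphase-promoting complex, fell from 93.6 and 98.2 to 70.2 and 57.9 FPKM (log2 -0.93). Among 16 cyclins, CDKs and CDK inhibitors 6 rose and 6 fell. The inhibitors led the falls. CDKN1C (p57) went from 49.2 and 52.1 to 9.72 and 9.29 FPKM (log2 -2.64) and CDKN2D (p19) from 29 and 27.9 to 7.63 and 6.2 FPKM (log2 -2.25). The palbociclib target CDK4 rose from 50.5 and 54.5 to 114 and 102 FPKM (log2 0.68) and its partner cyclin D1 (CCND1) from 51.8 and 53 to 85.5 and 85.3 FPKM (log2 0.35), while cyclin D2 (CCND2) fell from 86 and 81.5 to 42.8 and 41 FPKM (log2 -1.33).

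**Figure D3:**
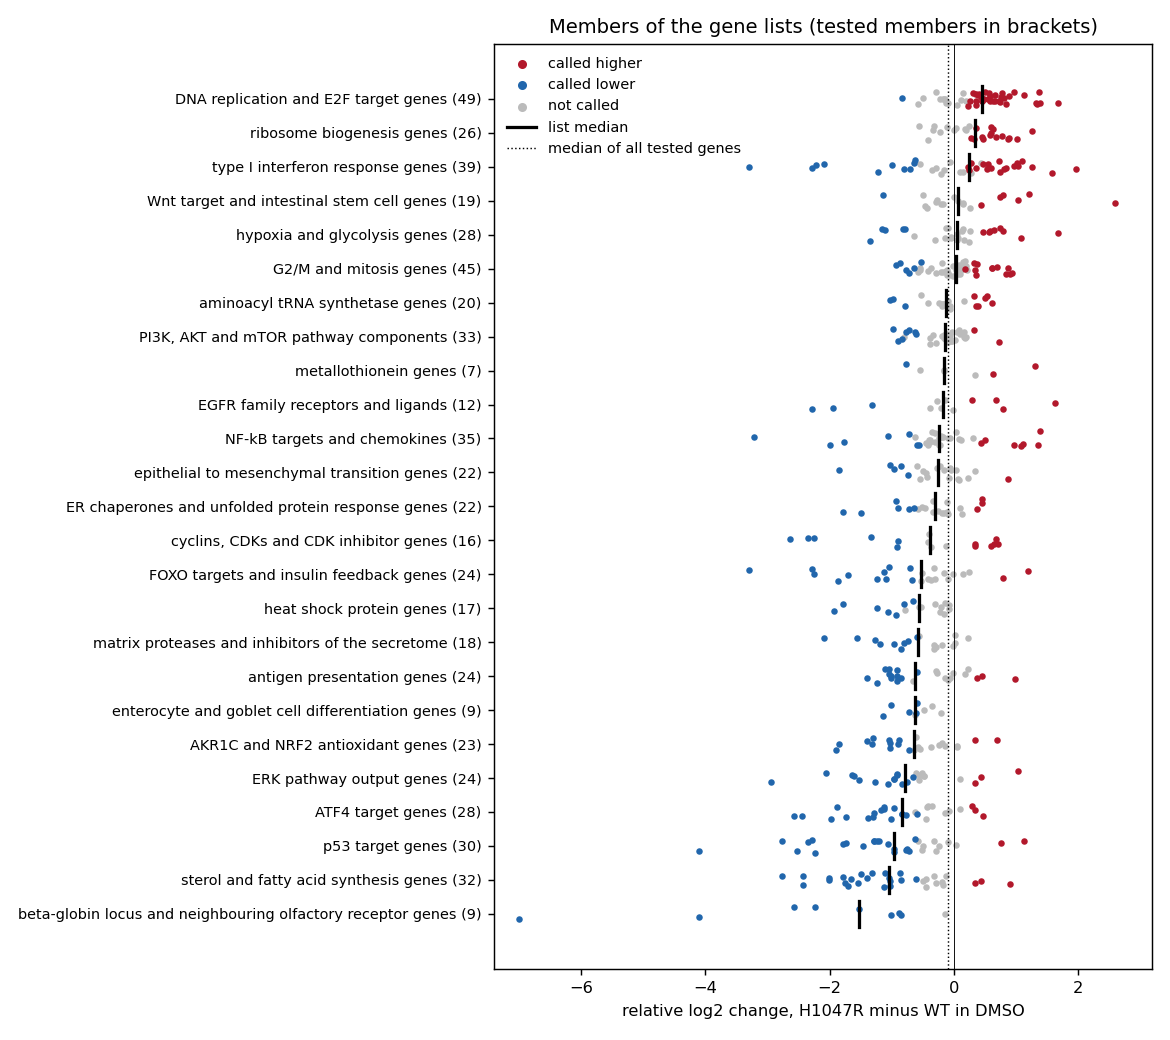
Relative log2 change of H1047R against wild type in DMSO for the tested members of each gene list, 1 point a gene, coloured where the gene rose or fell, with the list's median and a line at the median of all tested genes. Sterol synthesis, p53 and ATF4 target genes lie mostly to the lower side, replication and ribosome biogenesis genes to the higher side.

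Sterol and fatty acid synthesis genes fell in 21 of 32 cases and rose in 3, with a median of -1.04. INSIG1, which holds the sterol sensor SCAP in the endoplasmic reticulum, was at 869.9 and 889 FPKM in wild-type and 165 and 162 FPKM in H1047R cells. The groups were far apart (log2 -2.77, SE 0.09, adjusted p = 1.95e-10). HMGCS1, an early enzyme of the mevalonate pathway, fell from 308 and 297 to 70.6 and 71.1 FPKM (log2 -2.42). The demethylating sterol oxidase MSMO1 fell from 303 and 286 to 63.8 and 73.3 FPKM (log2 -2.44), and the cholesterol carrier STARD4 from 115 and 104 to 31 and 36.7 FPKM (log2 -2.01). In palbociclib 18 members were lower and 6 higher, in conditioned medium 2 and 2.

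ATF4 targets, which respond to amino acid shortage and other stress, fell in 17 of 28 cases and rose in 3, with a median of -0.84. The stress-induced repressor ATF3 fell from 81.7 and 85.7 to 16.4 and 17.8 FPKM (log2 -2.57), CTH, which makes cysteine, from 47.3 and 47.6 to 9.16 and 11.5 FPKM (log2 -2.45) and the mTOR inhibitor DDIT4 from 267 and 276 to 108 and 69.9 FPKM (log2 -1.98). DDIT3, the transcription factor CHOP, fell from 68 and 73.3 to 22.4 and 25.2 FPKM (log2 -1.88). ATF4 itself fell from 504 and 512 to 336 and 323 FPKM (log2 -0.97). Aminoacyl tRNA synthetases, many of which ATF4 also induces, had 6 of 20 higher and 3 lower, shares close to those of all genes (24.7% and 16.5%). CARS1, for cysteine, fell from 53.6 and 54 to 33.1 and 33.2 FPKM (log2 -1.03), YARS1, for tyrosine, from 117 and 127 to 77.5 and 78.3 FPKM (log2 -0.98), and FARSA, a subunit of the phenylalanine enzyme, rose from 15.2 and 15.6 to 34.6 and 27.7 FPKM (log2 0.62). GARS1, for glycine, fell from 164 and 171 to 123 and 123 FPKM, with an adjusted p of 0.00844 that became 0.0538 without the first H1047R library.

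Chaperones and unfolded protein response genes of the endoplasmic reticulum had 6 of 22 members lower and 3 higher. Of all genes tested, 16.5% were lower and 24.7% higher. HSPA5, the chaperone BiP, fell from 312 and 317 to 115 and 117 FPKM (log2 -1.78, SE 0.08, adjusted p = 1.97e-09). HERPUD1, of the degradation machinery, fell from 49 and 48.6 to 21.5 and 21.4 FPKM (log2 -1.49), MANF from 67.2 and 68.2 to 44.5 and 44.6 FPKM (log2 -0.94) and the co-chaperone DNAJB9 from 9.89 and 8.65 to 5.6 and 6.46 FPKM (log2 -0.89). The lectin chaperone CALR, the sensor ATF6 and CRELD2 rose, by 0.46, 0.38 and 0.45 on the log2 scale. In palbociclib 9 members of the list were lower and 4 higher, and in conditioned medium none passed limma's test. Cytosolic heat shock genes had 7 of 17 members lower and none higher by limma's test, also with an unadjusted p under 0.05. HSPA1B, an inducible HSP70 with a near-identical copy that reads could be split with, fell from 284 and 287 to 93 and 95.4 FPKM (log2 -1.94). The co-chaperone DNAJB1 fell from 121 and 127 to 46.2 and 43.9 FPKM (log2 -1.78), HSPB1 from 20.2 and 19.7 to 14.2 and 9.67 FPKM (log2 -1.07) and CHORDC1, a partner of HSP90, from 24.4 and 21.8 to 10.2 and 14.1 FPKM (log2 -1.23). In palbociclib 6 heat shock genes were lower and 4 higher, and in conditioned medium none passed limma's test.

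The promoters of HSPA5 and CHORDC1 are shown because each is a member that fell and holds the motif its list is named for. The ER stress element, CCAAT, 9 bases of any kind and CCACG on either strand, was present in 6 of 21 list promoters (28.6%), those of CALR, CANX, CRELD2, HSP90B1, HSPA5 and XBP1, and in 0.0806% of all 27305 promoters and 0.136% of the 10315 of tested genes. Among these 6 genes CALR and CRELD2 rose, HSPA5 and XBP1 fell and CANX and HSP90B1 did not pass the test. The heat shock element, GAA, TTC and GAA with 2 bases of any kind between them on either strand, was present in 2 of 17 list promoters (11.8%), those of CHORDC1 and HSPA8, and in 0.439% of all. Each line gives the 250 bases before the start on the gene's own strand, which is the minus strand for both, with the matches in capitals, at chr9:125241344-125241593 and chr11:90223050-90223299 of GRCh38.p14.
HSPA5: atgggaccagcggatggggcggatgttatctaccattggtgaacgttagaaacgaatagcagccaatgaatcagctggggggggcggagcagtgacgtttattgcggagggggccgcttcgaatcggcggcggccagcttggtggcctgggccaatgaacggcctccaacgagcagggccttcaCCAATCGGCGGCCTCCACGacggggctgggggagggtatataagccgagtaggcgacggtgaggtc
CHORDC1: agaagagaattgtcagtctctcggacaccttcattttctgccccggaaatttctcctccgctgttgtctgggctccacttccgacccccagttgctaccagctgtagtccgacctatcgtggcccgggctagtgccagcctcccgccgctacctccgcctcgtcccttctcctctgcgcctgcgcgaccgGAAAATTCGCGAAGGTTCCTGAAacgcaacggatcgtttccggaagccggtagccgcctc
In HSPA5 the match begins at position -66, and in CHORDC1 there are 3 overlapping matches, of which the first begins at -60. The sterol response element TCACNCCAC was found in 1 of 25 list promoters (4.0%, beside 0.875% of all) and the C/EBP-ATF response element TGATGNAAT in 1 of 24 (4.17%, beside 0.916% of all and 0.397% of those of tested genes), that of FGF21, and in none of the 17 of members that changed. The E2F site TTTGGCGC was found in 5 of 41 replication promoters (12.2%, beside 0.553% of all and 0.843% of those of tested genes), those of E2F1, E2F2, MCM6, POLA1 and POLE.

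Genes of antioxidant defence that NRF2 induces had 11 of 23 members lower and 2 higher. The aldo-keto reductases AKR1C1, from 3.77 and 4.14 to 0.42 and 1.01 FPKM, and AKR1B10, from 4.64 and 4.39 to 0.65 and 1.31 FPKM, fell by 1.90 and 1.84 on the log2 scale, with similar copies that reads could be split with. Transketolase (TKT), of the pentose phosphate pathway, fell from 718 and 759.9 to 370.2 and 339 FPKM (log2 -1.4), and the iron store protein FTL from 893 and 923 to 456 and 471 FPKM (log2 -1.31). KEAP1, the inhibitor of NRF2, rose by 0.7. Of 7 metallothionein genes, which bind zinc and copper and resemble each other closely, MT1E rose from 12.4 and 13.4 to 54.5 and 33.8 FPKM (log2 1.31). MT1M and MT2A passed the test but lost it without 1 library of either genotype, with adjusted p up to 0.206 and 0.229.

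Hypoxia and glycolysis genes had 8 of 28 higher and 5 lower, shares close to those of all genes (24.7% and 16.5%). ANKRD37, a hypoxia-induced gene, rose from 2.01 and 1.44 to 16.5 and 6.01 FPKM (log2 1.69) with a wide gap between the H1047R libraries, and lactate dehydrogenase (LDHA) from 265 and 279 to 739 and 492 FPKM (log2 0.8). The angiogenic factor VEGFA fell from 66.3 and 64.7 to 34.8 and 30.1 FPKM (log2 -1.34), the aldolase ALDOC from 41.4 and 45.6 to 30.4 and 19.5 FPKM (log2 -1.15) and hexokinase 1 (HK1) from 32.5 and 33.1 to 20.4 and 17.4 FPKM (log2 -1.11). Of 26 ribosome biogenesis genes, 15 were higher by limma's test, 16 with an unadjusted p under 0.05, and 11 did not pass limma's test. Their median was 0.35 and their lowest log2 change -0.56. None was lower by either measure. POLR1A, the large subunit of RNA polymerase I, rose from 1.87 and 1.66 to 7.22 and 7.62 FPKM (log2 1.26), and the ribosomal RNA processing factor UTP4 from 12.6 and 12.9 to 34.5 and 34.2 FPKM (log2 1.02). UTP20 and MYBBP1A, of the same nucleolar machinery, rose by 0.89 and 0.87. The summed FPKM of the list was 2963 and 2924 in wild-type and 2934 and 3035 in H1047R libraries. In palbociclib 23 members rose and none fell. In conditioned medium none passed limma's test in either direction, with a median of -0.01.

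Of 19 Wnt targets and intestinal stem cell genes tested, 6 rose and 1 fell, a share of rises close to that of all genes, with a median of 0.07. Beside LGR5 and MYC, the intestinal transcription factor CDX2 rose from 19.4 and 18.7 to 70.9 and 47.9 FPKM (log2 1.22) and the Wnt feedback gene AXIN2 from 20.6 and 20.3 to 46.4 and 45.8 FPKM (log2 0.79). The ephrin receptor EPHB3 was the member that fell, from 3.76 and 3.93 to 1.81 and 1.76 FPKM (log2 -1.14). Enterocyte and goblet cell genes had 5 of 9 members lower and none higher by limma's test, also with an unadjusted p under 0.05. The goblet mucin MUC2 fell from 30.7 and 31.8 to 18.1 and 17 FPKM (log2 -1.14), and CEACAM6 from 2.48 and 2.57 to 1.21 and 1.22 FPKM (log2 -1.02). CEACAM1, at 47.7 and 50.1 against 40.4 and 34.6 FPKM, and CEACAM5, at 13.3 and 13.2 against 10.7 and 10.9 FPKM, passed the test but lost it when single libraries of either genotype were left out, with adjusted p up to 0.165 and 0.121.

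Epithelial identity genes changed in both directions. The colonic surface antigen GPA33 rose from 11.1 and 12 to 59 and 40.4 FPKM (log2 1.65), while liver-intestine cadherin (CDH17) fell from 11.7 and 11.9 to 4.04 and 4.19 FPKM (log2 -1.66). Of 22 genes of the epithelial to mesenchymal transition, 1 rose and 5 fell, beside 24.7% of all genes that rose and 16.5% that fell. The mesenchymal filament vimentin (VIM) fell from 79.2 and 83.9 to 54.5 and 46.4 FPKM (log2 -1.03) and the repressor of epithelial genes SNAI1 from 11.6 and 12.4 to 4.29 and 2.99 FPKM (log2 -1.84). The epithelial splicing factor ESRP2 was the riser, from 6.26 and 6.59 to 16.6 and 15.9 FPKM (log2 0.87), but the epithelial transcription factor OVOL1 fell from 15.9 and 15.8 to 11.1 and 8.99 FPKM (log2 -0.96).

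Type I interferon response genes rose in 19 of 39 cases and fell in 10. IFIT2, an antiviral RNA-binding protein, stood at 4.73 and 4.49 FPKM in wild-type and 26.2 and 27.3 FPKM in H1047R cells (log2 1.96, adjusted p = 9.72e-10). Its neighbours on chromosome 10, IFIT3 and IFIT1, rose by 1.59 and 1.01 on the log2 scale. Beside IFI27, the members that fell included IFI44L, from 7.31 and 7.79 to 1.36 and 1.09 FPKM (log2 -2.29), the mitochondrial protein IFI6, from 54.2 and 52.3 to 15.2 and 12.4 FPKM (log2 -2.23), and IFITM1, a membrane protein that blocks viral entry, from 259 and 271 to 83.7 and 72.9 FPKM (log2 -2.09). The list thus held large changes of both signs. In palbociclib 22 members rose and 7 fell, and in conditioned medium 12 rose and 1 fell.

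Antigen presentation genes fell in 12 of 24 cases and rose in 3, with a median of -0.62. B2M, the light chain of class I molecules, fell from 105 and 103 to 60.9 and 61.4 FPKM (log2 -1.11), and the class II genes HLA-DQB1 and HLA-DPA1 from 32.9 and 32.5 to 18.4 and 16.1 FPKM (log2 -1.23) and from 7.02 and 7.1 to 3.04 and 2.71 FPKM (log2 -1.4). HLA-DMB, the class II peptide editor, fell from 2.18 and 2.81 to 1.01 and 1.3 FPKM (log2 -1.04). In the other conditions members rose. In palbociclib 15 members were higher by limma's test, and in conditioned medium 10 were, 13 with an unadjusted p under 0.05. None was lower in either condition, also with an unadjusted p under 0.05. HLA-DPA1 rose there by 0.48 and 0.41 on the log2 scale, and the interactions with DMSO, -1.89 and -1.81, passed the test.

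NF-kB targets and chemokines had 7 of 35 higher and 7 lower, shares close to those of all genes (24.7% higher and 16.5% lower). The cytokine TNF fell from 10.7 and 9.84 to 2.36 and 2.82 FPKM (log2 -2.0), and the neutrophil chemokine CXCL8 from 105 and 105 to 30.5 and 49 FPKM (log2 -1.76). The related chemokine CXCL2 rose from 11.1 and 9.72 to 34.8 and 39.3 FPKM (log2 1.39). In palbociclib CXCL8 was instead higher in H1047R (log2 0.5) and CXCL2 rose by 3.56, and both interactions with DMSO passed the test (-2.26 and -2.17). TNF fell in palbociclib as well (log2 -0.62) but rose in conditioned medium (log2 0.5), where its interaction with DMSO, -2.5, passed the test. In palbociclib 21 members of the list rose and 3 fell, beside 28.0% and 23.9% of all genes. In conditioned medium 5 rose and 4 fell. Of 18 matrix proteases, inhibitors and growth factor binding proteins, 9 fell and none rose by limma's test, also with an unadjusted p under 0.05. The metalloprotease inhibitor TIMP3 fell from 8.01 and 8.19 to 1.63 and 1.8 FPKM (log2 -2.09) and the urokinase receptor PLAUR from 51.4 and 52.9 to 31.3 and 23.4 FPKM (log2 -1.27). IGFBP2 and IGFBP7, which bind insulin-like growth factors or insulin, were low and fell by 1.56 and 1.19. In palbociclib 8 of these 18 genes fell and 3 rose, and in conditioned medium 4 fell and 2 rose.

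Several list medians were small beside the shift of all genes. As deposited, where the median of all genes was 0.26, the medians turned positive for the PI3K components (0.21), the EGFR family (0.17), the endoplasmic reticulum genes (0.05), the tRNA synthetases (0.22), the NF-kB targets (0.11), the metallothioneins (0.19), the transition genes (0.10), and the epithelial (0.13) and fibroblast markers (0.16). The medians of the FOXO, ERK, p53, sterol, ATF4, antioxidant, heat shock and antigen presentation lists stayed negative, and those of replication and ribosome biogenesis positive, under all 3 scalings.

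The beta-globin locus on chromosome 11 held a run of genes that fell. Of 17 listed genes of the locus and its surroundings in the table, 9 were tested and 8 of these fell. Of the 9, HBG2, OR51B4, OR51B5, OR51I1 and OR52D1 reached the minimum of 1 FPKM in 2 libraries only through wild-type libraries, so the direction of these 5 was largely set by that filter. OR51B5, an olfactory receptor gene next to the globins, went from 13.1 and 14.2 to 0.12 and 0.05 FPKM (log2 -4.1, adjusted p = 3.35e-12). OR51B4 was at 2.75 and 2.9 FPKM in wild-type cells and listed at 0 and 0.07 in H1047R cells, and the fetal globin HBG2, with a near-identical copy, at 4 and 3.38 FPKM and at 0 in both H1047R libraries. From HBG2 to OR52D1, between 5253188 and 5505652, 6 neighbouring tested genes fell, HBE1 and the 5 that passed the filter only through wild-type libraries. This was the longest of 15 runs of at least 3 neighbours lowered or raised at least 2-fold together, 10 of which were lower. The next longest held 4 genes, and others held the death receptor genes TNFRSF10B, TNFRSF10C and TNFRSF10D on chromosome 8 (lower) and IFIT2, IFIT3 and IFIT1 between 89302046 and 89406487 on chromosome 10 (higher).

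Of 19 cancer-testis genes in the table, 4 were tested and 3 of these fell, MAGEA6, MAGEA3 and CSAG1, each of which passed the filter only through wild-type libraries. MAGEA6 was at 8.25 and 9.18 FPKM in wild-type and 0.07 and 0.07 FPKM in H1047R cells (log2 -3.53, adjusted p = 5.50e-12), and MAGEA3, which is nearly identical to it, at 2.2 and 2.23 against 0 and 0.09 FPKM. CSAG1 passed the test at levels of about 1 FPKM and below, and lost it without the first library of either genotype, with adjusted p up to 0.381. The DAZ genes, germ-cell RNA-binding proteins in 4 near-identical copies, summed to 12.2 and 11.2 FPKM in wild-type cells and to 0.10 and 0.21 FPKM in H1047R cells. In palbociclib the sums were 4.69 and 5.03 FPKM in wild-type against 0.17 and 0.10 FPKM in H1047R, and in conditioned medium 18.6 and 15.1 against 0.18 and 0.10 FPKM. The E545K line had 34.1 and 27.4 FPKM in DMSO, so the DAZ signal was present in both other lines and near 0 in H1047R under each condition. DAZ2 and DAZ4 lie on chromosome Y, which the runs and the shares by chromosome leave out. What the DAZ difference comes from was not tested.

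The genotype difference was then read in the libraries of the other conditions. Of these, the wild-type palbociclib libraries share part of the offset of the wild-type DMSO libraries described above. In palbociclib 3529 genes were higher in H1047R (28.0%) and 3013 lower (23.9%), 6542 in all (51.9%). In conditioned medium 319 were higher (2.53%) and 527 lower (4.18%), 846 in all (6.71%). Of the 3113 genes higher in DMSO, 2333 (74.9%) were also higher in palbociclib and 184 (5.9%) in conditioned medium. Of the 2078 lower in DMSO, 1617 (77.8%) were lower in palbociclib and 288 (13.9%) in conditioned medium. With at least a 2-fold change in DMSO the numbers were 465 of 479 raised genes (97.1%) in palbociclib and 63 (13.2%) in conditioned medium, and 677 (89.9%) and 154 (20.5%) of 753 lowered genes in the same order. In all 3 conditions 170 genes were higher (1.35%) and 267 lower (2.12%). The count of 846 in conditioned medium rose to 1592 with a weight for each group's spread, and fell to between 356 and 492 when any 1 of its 4 libraries was left out. Without 1 of those libraries, 68 to 100 genes were higher in all 3 conditions and 131 to 202 lower.

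**Figure D4:**
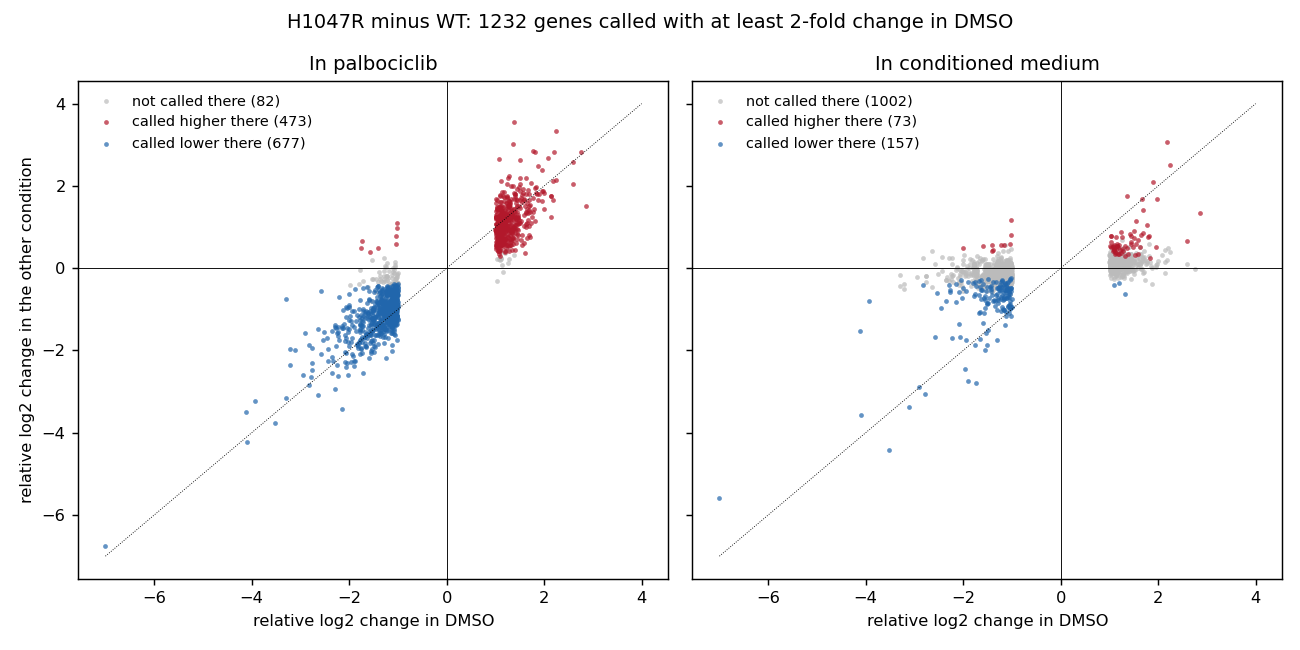
Log2 difference of H1047R from wild type in DMSO (horizontal axes) against the same difference in palbociclib (left) and in conditioned medium (right) for the 1232 genes changed at least 2-fold in DMSO, coloured by whether they rose, fell or did not pass the test in the second condition. In palbociclib 473 were higher, 677 lower and 82 not past the test, while in conditioned medium 1002 did not pass and most lie near 0.

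The difference of the differences was tested as an interaction, which uses the DMSO libraries again. Between DMSO and conditioned medium 3374 genes passed (26.8%), 2145 with a more positive difference in DMSO (17.0%) and 1229 with a more negative one (9.75%). Between DMSO and palbociclib 1080 passed (8.57%), 538 (4.27%) and 542 (4.3%) by direction. That count was 2527 without the first H1047R palbociclib library, and 499 to 609 without either wild-type library of DMSO or palbociclib or the second H1047R DMSO library. PPP1R10 is an example of the first kind. Wild-type cells had 2.4 and 2.79 FPKM in DMSO, 3.27 and 3.76 in palbociclib and 32.1 and 32.9 in conditioned medium, while H1047R cells had 31.1 and 29 in DMSO and 30.5 and 33.9 FPKM in conditioned medium. In conditioned medium the genotypes thus overlapped, with a difference of -0.02 on the log2 scale.

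S100P was at 152 and 147 FPKM in wild-type cells in DMSO and 9.06 and 10.6 in conditioned medium, where H1047R cells, at 6.27 and 4.3 FPKM, were still lower by the test (log2 -0.81, adjusted p = 0.00832). GDF15 in wild-type cells was at 891 and 929 FPKM in DMSO and 58.9 and 77.6 FPKM in conditioned medium, where H1047R was lower at 20.2 and 26.2 FPKM (log2 -1.52). LGR5 also narrowed, with 32.5 and 30.7 FPKM in wild-type and 53.3 and 48.9 in H1047R cells in conditioned medium (log2 0.67), beside 8.15 and 7.85 against 51.7 and 30.9 FPKM in palbociclib (log2 2.04). For S100P, GDF15 and LGR5 the DMSO difference minus that in conditioned medium was -3.12, -2.59 and 1.93 on the log2 scale, and each passed the interaction test.

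A smaller set passed the test in the same direction in each condition, though the size of the difference was not always the same. ROBO2 was at 0.8 and 0.86 against 7.07 and 5.25 FPKM in wild-type and H1047R cells in palbociclib, and at 0.83 and 0.93 against 7 and 7.06 FPKM in conditioned medium (log2 1.81 and 2.09). HBE1 was at 169 and 174 against 0.68 and 0.85 FPKM in palbociclib and 86.1 and 89.3 against 0.96 and 0.77 FPKM in conditioned medium (log2 -6.76 and -5.58). FXYD2 stood at 2.32 and 1.26 against 20.1 and 23.9 FPKM in conditioned medium (log2 3.06), a wider gap than in DMSO by the interaction test (-0.89, adjusted p = 0.0373). For HBE1 the DMSO difference exceeded that in conditioned medium (-1.43 on the log2 scale), while the interactions of ROBO2 did not pass. FAM151A, IFIT2 and CYREN, a regulator of DNA end joining, also rose in each condition, by 1.51, 2.38 and 1.98 in palbociclib and by 1.34, 0.51 and 0.25 in conditioned medium. For these 3 the DMSO difference was larger than that in conditioned medium by 1.52, 1.45 and 1.58, and that of FAM151A was larger than in palbociclib by 1.35, all past the interaction test. OR51B5 was lower in each as well, by 4.23 and 3.57 on the log2 scale, but it passed the filter only through wild-type libraries, which largely set that direction.

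**Figure D5:**
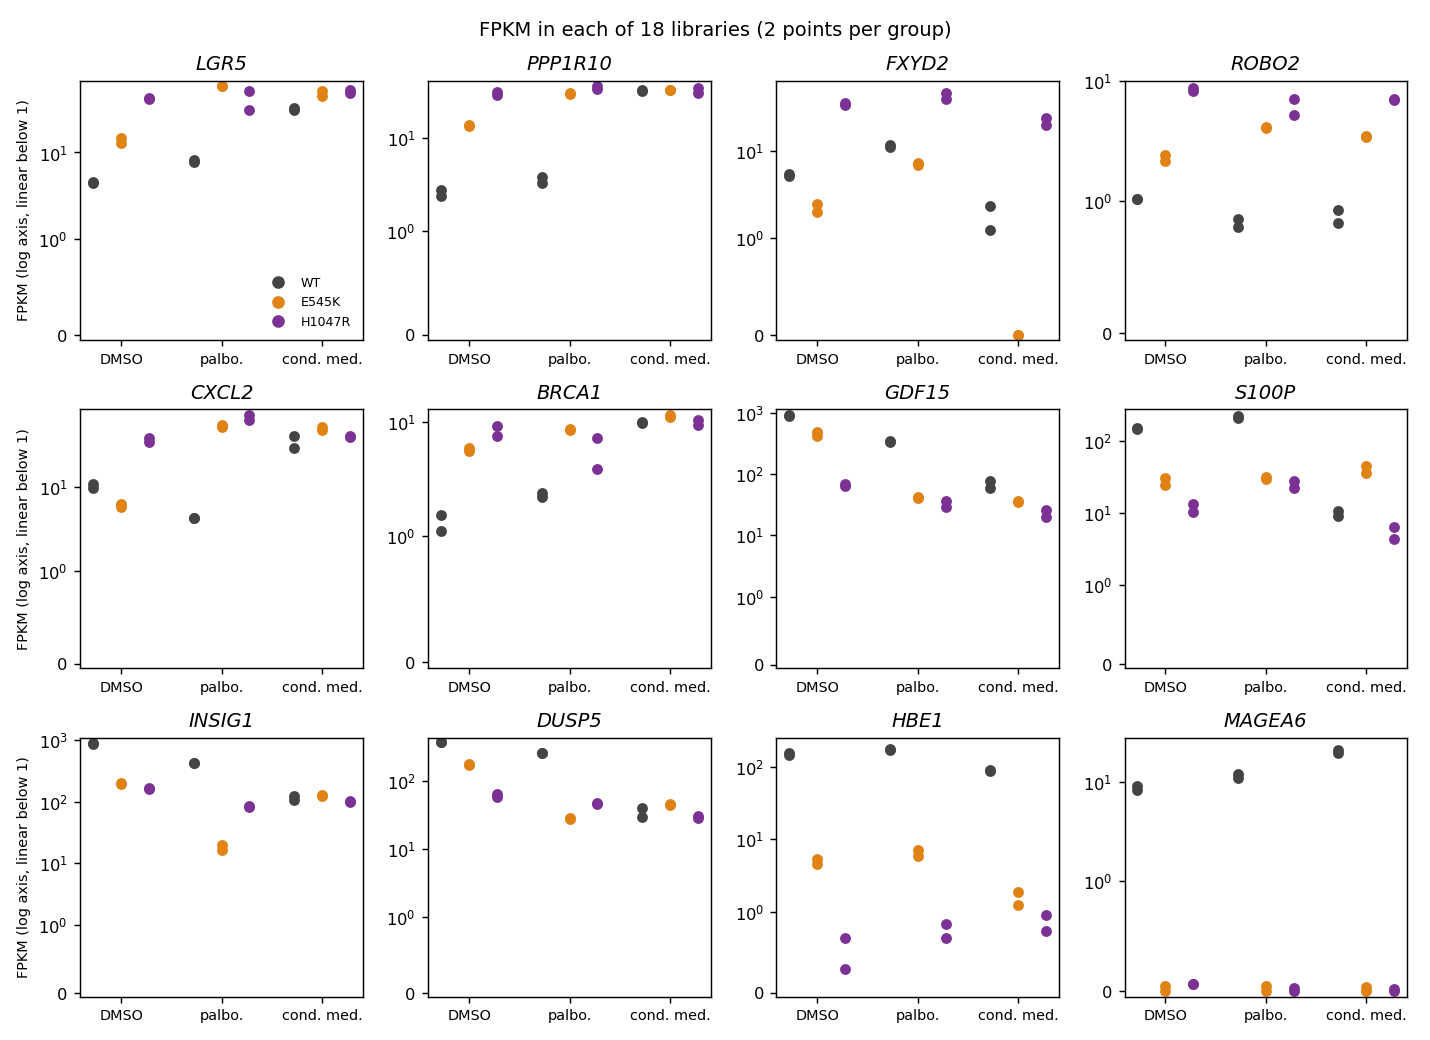
FPKM of single genes in each library by group, on a log axis that is linear below 1 FPKM, with 2 points a group, 1 for each library. HBE1 and ROBO2 keep apart in wild-type and H1047R cells in all 3 conditions, while the points of PPP1R10 overlap in conditioned medium and the gap of S100P and LGR5 is narrower there than in DMSO.

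Against the E545K line in DMSO, a comparison that uses the same H1047R libraries, 2192 genes were higher in H1047R (17.4%) and 2314 lower (18.4%), 4506 in all (35.7%). PIK3CA, at 8.2 and 7.37 FPKM in E545K, did not pass the test (log2 -0.23). LGR5 was at 14.7 and 12.9 FPKM in E545K and rose in H1047R against it by 1.47, and PPP1R10, at 13.9 and 13.3 FPKM, by 1.04. FXYD2 was at 2.48 and 2.02 FPKM in E545K, and the gap to H1047R was 3.43. GDF15, at 422 and 483 FPKM, and CDKN1A, at 308 and 319 FPKM, were both high in E545K and lower in H1047R by 2.81 and 2.43 on the log2 scale. HBE1 was at 4.56 and 5.42 FPKM in E545K, low but above H1047R (log2 -2.07), and MAGEA6 did not pass the test (log2 0.01). By list, H1047R against E545K had 25 of 30 p53 targets lower and 2 higher, 14 of 24 ERK output genes lower and 2 higher, and 12 of 22 endoplasmic reticulum genes lower and 1 higher. Replication genes, with 12 higher and 6 lower of 49, and sterol genes, with 7 higher and 5 lower of 32, were more balanced there.

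Shares of changed genes differed with GC content, length and chromosome. In 5 equal groups of the tested genes by GC content of the transcript, the share higher in H1047R was 24.4% in the group of lowest GC and 18.6% in that of highest GC, and the share lower 13.3% and 21.2%. By transcript length, the group of shortest transcripts had 19.3% higher and 19.2% lower, and the other 4 groups between 22.8% and 29.2% higher and between 13.8% and 17.4% lower. Chromosome 19 had 15.5% of its tested genes higher and 23.3% lower, and chromosome 21 had 32.5% higher and 10.3% lower. The part of GC content, length or chromosome in any single gene's change was not tested.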

How the data were processed

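Poly(A) RNA was sequenced and the authors deposited FPKM per gene and library, per the file headers, with 2 decimals. Per the submitters' processing notes, the tools were RSEM 1.3.1, HISAT2 2.1.0, DESeq2 1.4.5 and Bowtie2 2.3.4.3 on hg38 (GRCh38), with no role given for any. Fragment counts and depth were not used here: low values gave whole steps for 56.0% of tested entries over 789 genes (tolerance 0.15), too few to recover reads. FPKM sums per library ranged from 446862 to 524290.

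Genes with at least 1 FPKM in at least 2 libraries were fitted as log2(FPKM + 1) with limma 3.58.1 in R 4.3.3 (group means of all 18 libraries, trended empirical Bayes, 9 residual degrees of freedom) under the 3 scalings described, with Benjamini-Hochberg adjustment over 12607 genes. Interactions and the E545K comparison came from the same fits. Only the comparison of H1047R with wild type in DMSO was also run on simulated data, which lacked the shift over all genes seen here. The members and gene lists were chosen with earlier results of these data known. Named genes are PIK3CA, the 12 raised and 12 lowered most with a group mean of at least 5 FPKM, up to 4 changed members of each list, and the 6 in each direction with the largest difference held in all conditions or the largest interaction with conditioned medium. Others, such as EGFR, IRS1, IRS2, CDK4, CCND1, ATF4, LDHA, AXIN2, IFIT1, RPTOR and KRT8, were chosen after their values were seen. Some genes that this rule names are not reported here.

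Replicate numbers are no block in the main fits. Positions for 99.8% of the tested genes (12584) and all sequences came from RefSeq, GRCh38.p14. GC content and length were known for 97.4% (12283 genes).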

Additional observations from a re-analysis of the deposited data

Results flagged for a closer look

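Differences between conditions in the genotype effect were found by an interaction test that reuses the DMSO libraries. The H1047R difference from wild type was not the same in DMSO and in palbociclib for 1080 genes, and not the same in DMSO and in conditioned medium for 3374 genes. Among those changed in DMSO with a group mean of at least 5 FPKM, the DMSO difference was more positive than that in conditioned medium by 2.79 on the log2 scale for PPP1R10, 2.49 for HPS6, 2.27 for TASOR, 2.27 for the interleukin-1 family cytokine IL37, 2.02 for EGR1 and 2.01 for the heterochromatin protein gene LRIF1.

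IL37 was at 5.34 and 5.1 FPKM in wild-type and 33.5 and 23.5 FPKM in H1047R cells in DMSO, and at 45.3 and 39.7 against 32 and 32.3 FPKM in conditioned medium. LRIF1 was at 1.43 and 1.43 against 8.82 and 9.64 FPKM in DMSO and 8.48 and 7.98 against 7.41 and 5.89 FPKM in conditioned medium. In conditioned medium IL37 and LRIF1 did not pass the test, with log2 differences of -0.4 and -0.28. EGR1 was lower in H1047R cells there by the test, at 10.5 and 9.95 against 3.03 and 2.51 FPKM (log2 -1.58).

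The DMSO difference minus that in conditioned medium was -3.13 for IFI27, -3.12 for S100P, -3.06 for GADD45B, a stress sensor, -3.04 for the AP-1 subunit JUND, -2.86 for PCK1 and -2.84 for PIM3. GADD45B was at 62.7 and 66.8 against 10.2 and 11.4 FPKM in DMSO, and at 6.12 and 7.71 against 8.05 and 8.6 FPKM in conditioned medium, where the groups did not overlap but the test was not passed. JUND was at 346 and 361 against 83.4 and 61.6 FPKM in DMSO and 37.8 and 44.7 against 52.9 and 57.5 FPKM in conditioned medium. PIM3 was at 56.1 and 61.9 against 42 and 49 FPKM, PCK1 at 1.57 and 2.71 against 1.38 and 1.21 FPKM and IFI27 at 41.6 and 37.9 against 35.5 and 35.4 FPKM in conditioned medium. In each gene named in this section the wild-type level in conditioned medium lay far from its DMSO value, by a larger factor than the H1047R level did. What this comes from was not tested, and the hours in conditioned medium are not given in the sources used here.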

How the results depend on the processing

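Single scalings gave more calls than the rule that all 3 agree: 8492, 7967 and 7861 genes in DMSO for the values as deposited, median-centred and quantile-normalized, with 6286 higher as deposited and 4650 and 3814 lower under the other two. The interaction counts were 2845, 2053 and 1851 for palbociclib and 6422, 5646 and 5465 for conditioned medium in the same order; fewer conditions to meet make these larger by construction. Array weights gave 1592 genes in conditioned medium and 389 for the palbociclib interaction, and fits on the compared groups alone 1281 and 147; the cause was not tested. The PIK3CA change became 0.28 as deposited, where all genes shift by 0.26.

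Leaving out a library gave 4323 to 4877 genes in DMSO (2610 to 2882 higher, 1713 to 1995 lower), 5210 to 7318 in palbociclib, 356 to 492 in conditioned medium, 499 to 2527 and 2618 to 3274 for the interactions and 3209 to 3926 against E545K. Genes higher in all 3 conditions then numbered 68 to 168 and lower 131 to 264. Of 133 named genes past the threshold, 120 stayed past it under each alternative run. Deviations of same-numbered libraries correlated from -0.561 to 0.553 over 36 combinations of groups (r = -0.237 for H1047R and wild type in DMSO), so replicate numbers were not taken to pair them; with a replicate block the counts were 5215 (3122 higher, 2093 lower), 6582, 877, 1117, 3407 and 4569. Depth is unknown, so FPKM near 0 carries no floor.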
